A study of Mus musculus with 6 samples.

Results

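Genes of the red cell membrane and its cytoskeleton were followed through 6 arrays of mouse bone marrow, 3 from ASXL1-MT-transplanted mice and 3 from mock-transplanted mice. The 8 genes were Slc4a1, Epb42, Ank1, Add2, Tspan33, Rhd, Rhag and Tfrc. They were found as every probe set whose platform annotation gave exactly 1 symbol, that symbol being one of the 8, which took 23 of 45037 probe sets and 8 of 18193 genes. The ASXL1-MT mice carried a disease resembling myelodysplastic syndrome per the labels, and the mock mice served as normal controls. ASXL1 acts on chromatin and is often truncated by mutation in human myelodysplastic syndromes. The question addressed is what distinguishes the RNA of the diseased marrow from that of control marrow. Titles of both groups carry the same BMT prefix, and the strain, age, sex, vector and promoter are not given in the sources used here. The cells were marrow cells left after magnetic beads had removed those bound by antibodies to CD3e, B220 and TER-119. The series text gives this depletion for both groups, and the sample label gives it for mock alone. No source used here says that the 3 samples in each group were taken from different animals, so p-values measure the spread between these arrays, which may be technical.

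A red cell keeps its shape through a mesh of spectrin and actin under the membrane. The mesh is held to the lipid layer through complexes built on band 3, with ankyrin and protein 4.2, and through junctions that adducin helps to form at the ends of short actin filaments. The Rh proteins sit in the same complexes, and the transferrin receptor brings in the iron that heme synthesis needs while the cell is still a precursor. TER-119 marks red cell precursors from the erythroblast stages on, and earlier precursors carry little of it, so a depleted fraction can still hold RNA of this lineage.

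Each value is a log2 signal from which the median of that probe set over the 6 arrays had been subtracted, with the log base taken as 2. A value of 0 is therefore the middle of the 6 arrays and not an absent signal, and the level of a gene cannot be read from it. A gene's value is the mean of its probe sets. Changes are ASXL1-MT means less mock means, given with the standard error (SE) of limma, and it was called when the p-value of limma, adjusted by the Benjamini-Hochberg method over all rows fitted, was under 0.05. Over all genes the median change was 0.11. Array medians ran from -0.05 to 0.05, and equalising them or normalising the arrays in other ways took the median change of all probe sets from 0.106 to between 0.004 and 0.024, so small changes are to be read against it.

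Tspan33 and Add2 were higher in ASXL1-MT marrow, by 4.38-fold and 3.43-fold, and the other 6 genes did not pass the test. This made 2 of 8 genes called higher and 0 lower, where 6.63% of all genes were called higher and 11.4% were called in either direction. For 7 of the 8 genes the groups did not overlap, with ASXL1-MT above mock, as for 23.5% of all genes. The 8 genes had a median change of 2.0, which is 1.89 above the median of all genes. At an unadjusted p under 0.05, 6 of the 8 were higher and 0 lower, against 18.1% higher over all genes. The 8 genes were chosen with earlier results of these data known, so an excess over these shares is no separate evidence. Both calls were lost in each of the 6 fits with 1 array left out, where the gene count fell from 2 to 0 every time and the count over all genes from 2072 to between 192 and 1033 (5.68% without ASXL1-MT replicate 1). With the samples in bulk, more cells of the red cell lineage left after depletion and more RNA per cell cannot be told apart. How completely the depletion worked for each array was not tested.

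**Figure D1:**
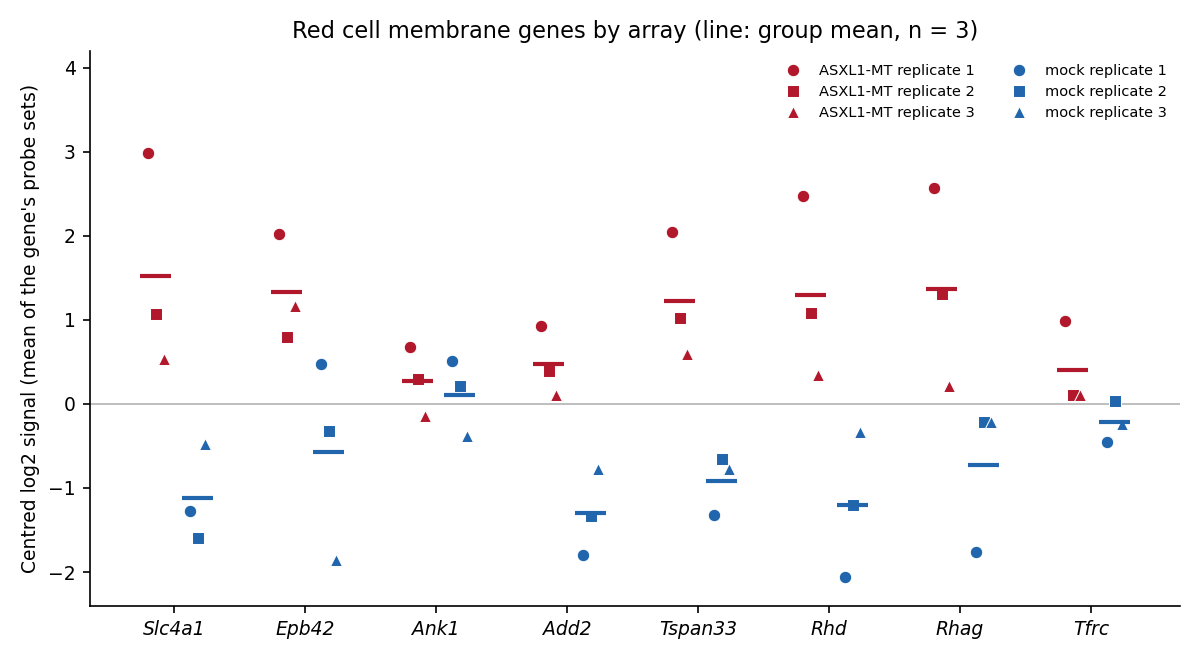
Centred log2 value of each of the 8 genes (vertical axis) on each array, ASXL1-MT in red and mock in blue, with the symbol giving the replicate and a line at each group mean (n = 3). ASXL1-MT replicate 1 is the highest of the 6 arrays for every gene shown, and the groups overlap for Ank1 alone.

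Slc4a1 encodes band 3, the chloride and bicarbonate exchanger that anchors the cytoskeleton. Its gene values were 2.98, 1.07 and 0.53 in ASXL1-MT replicates 1 to 3, and mock replicates 1 to 3 had -1.28, -1.60 and -0.48. All ASXL1-MT arrays lay above all mock arrays, but replicate 1 stood 1.92 above replicate 2 and 2.46 above replicate 3. The change of 2.64 (SE 0.71) did not pass (limma adjusted p = 0.0749). Without ASXL1-MT replicate 1 it was 1.92 (adjusted p = 0.0755).

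The 3 probe sets of Slc4a1 disagreed. Probe set 1434502_x_at read 4.67, 2.40 and 0.94 with ASXL1-MT, against -2.43, -2.43 and -0.94 in mock. Its change of 4.60 (SE 1.04, adjusted p = 0.0596) was the largest among the 23 probe sets, and 1416464_at had the next largest at 3.81 (SE 0.95, adjusted p = 0.074). The arrays of these probe sets fell in nearly the same order, with ASXL1-MT replicate 1 far above the rest. Probe set 1431743_a_at read 0.07, -0.86 and -0.26 against 0.02, -0.02 and 0.40, a change of -0.48 (adjusted p = 0.363). It shows none of the difference seen by the other two, and it lowers the mean given for the gene. A suffix _x marks probe sets that may also bind related sequences.

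Rhd and Rhag are homologous proteins of the Rh complex, which is thought to carry ammonia or carbon dioxide and is tied to the band 3 complex. Each had 1 probe set. Rhd (1417049_at) read 2.47, 1.08 and 0.34 with ASXL1-MT and -2.06, -1.20 and -0.34 in mock, a change of 2.50 (SE 0.70, adjusted p = 0.0808 among genes). Rhag (1419014_at) read 2.57, 1.31 and 0.21 against -1.76, -0.21 and -0.22, a change of 2.10 (SE 0.75, adjusted p = 0.137). Both had ASXL1-MT replicate 1 at the top and mock replicate 1 at the bottom. The gap between the lowest ASXL1-MT and the highest mock array was 0.68 for Rhd and 0.42 for Rhag, less than the spread inside either group. Without ASXL1-MT replicate 1 the changes were 1.91 (adjusted p = 0.141) and 1.49 (adjusted p = 0.248).

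Tspan33 encodes a tetraspanin, a protein with 4 membrane passes, that is found in erythroblasts and also in B cells. Its gene values were 2.04, 1.02 and 0.59 with ASXL1-MT and -1.32, -0.65 and -0.78 in mock. The groups were 1.24 apart at their nearest arrays, the widest gap of the 8 genes. The change was 2.13 (SE 0.43, adjusted p = 0.0372). Without ASXL1-MT replicate 1 it was 1.72 (adjusted p = 0.0527), and over all 6 fits with an array left out it ran from 1.72 to 2.45 (adjusted p from 0.0527 to 0.105).

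All 4 probe sets of Tspan33 had groups that did not overlap. Among probe sets, 1451609_at and 1455618_x_at were called higher, the only 2 of the 23, where 4.73% of all probe sets were called higher and 8.1% in either direction. Probe set 1451609_at read 2.98, 1.97 and 1.04 against -1.35, -1.04 and -1.13, a change of 3.17 (SE 0.51, adjusted p = 0.0307). The mock arrays lay within 0.31 of each other there, and the ASXL1-MT arrays within 1.94. This was the only member probe set to keep a call with an array left out, which it did without ASXL1-MT replicate 1 (change 2.68, adjusted p = 0.0482, with 2.54% of all probe sets called) and in none of the other 5 fits. Probe set 1455618_x_at read 2.06, 0.85 and 0.76 against -1.82, -0.94 and -0.76, a change of 2.40 (SE 0.48, adjusted p = 0.0463). Its call was lost with equal array medians (adjusted p = 0.0523), after quantile normalization (adjusted p = 0.0545) and after cyclic loess (adjusted p = 0.0542). The remaining 2 probe sets had changes of 1.78 (1451608_a_at) and 1.19 (1425157_x_at).

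Among the proteins that tie the membrane to the mesh, Add2 rose and Epb42 and Ank1 did not pass. Add2 encodes beta-adducin, which caps actin filaments and recruits spectrin to them, and which nerve cells also make. Its gene values were 0.93, 0.39 and 0.11 with ASXL1-MT and -1.80, -1.33 and -0.77 in mock. No array of one group reached the other, and the spread was alike, with an SD of 0.42 with ASXL1-MT and 0.52 in mock. The change was 1.78 (SE 0.35, adjusted p = 0.0365), and 1.55 without ASXL1-MT replicate 1 (adjusted p = 0.0841). The call was also lost with a trend in the variance model (adjusted p = 0.0506) and with trend and robust settings (adjusted p = 0.0919). As the values were centred, that trend follows the mean of the centred values and not the signal intensity.

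None of the 5 probe sets of Add2 passed alone. Probe set 1435287_at read 2.12, 0.84 and 0.30 against -4.70, -3.13 and -0.30, a change of 3.8 (SE 1.22, adjusted p = 0.126). Mock replicate 3 lay within 0.60 of the nearest ASXL1-MT array there, while mock replicates 1 and 2 were far below. Probe set 1431076_at read 1.5, 0.29 and 0.43 against -0.63, -0.83 and -0.29, a change of 1.32 (SE 0.38, adjusted p = 0.102). Groups did not overlap for 1450442_at either, by 0.04, with mock replicate 1 at -3.29, and its change of 1.48 was 0.49 without that array. For 1421975_a_at and 1451914_a_at the groups overlapped, with changes of 1.59 and 0.70.

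Epb42 encodes protein 4.2, which stabilises the bond between band 3 and ankyrin. Its gene values were 2.02, 0.79 and 1.17 against 0.47, -0.32 and -1.86, a change of 1.90 (SE 0.68, adjusted p = 0.138). The probe sets differed in which arrays were high. Probe set 1417337_at read 3.88, 1.76 and 0.21 against -1.07, -0.21 and -2.54, with a change of 3.22 (SE 1.10, adjusted p = 0.144). Probe set 1417338_at was high in ASXL1-MT replicate 3 at 2.12 and mock replicate 1 at 2.01, with the other 4 arrays between -1.18 and 0.17. Its change of 0.58 (SE 1.05) was smaller than its error.

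Ank1 encodes erythroid ankyrin, the adaptor between band 3 and spectrin. Its gene values overlapped, at 0.68, 0.29 and -0.15 with ASXL1-MT and 0.51, 0.21 and -0.38 in mock, and the change was 0.16 (SE 0.33, adjusted p = 0.794). The mean hides probe sets that ran in opposite directions. Probe set 1425677_a_at read 1.63, 1.80 and -0.06 against -0.45, 0.06 and -0.83, a change of 1.53 (SE 0.57, adjusted p = 0.172). Probe set 1452512_a_at was high in mock replicate 1 alone, at 3.09, and had a change of -1.19 (adjusted p = 0.489). The remaining sets, 1419421_at and 1443291_at, had changes of 0.63 and -0.33. For 1419421_at the groups touched, with ASXL1-MT replicate 3 and mock replicate 3 both at 0.00 after rounding, and they are counted below as not overlapping.

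Tfrc encodes the transferrin receptor, which is dense on red cell precursors and is also made by other dividing cells. Its gene values were 0.98, 0.11 and 0.11 with ASXL1-MT, against -0.45, 0.03 and -0.24 in mock. ASXL1-MT replicate 1 stood 0.87 above both its fellows, and the nearest arrays of the groups were 0.07 apart. The change was 0.62 (SE 0.30, adjusted p = 0.247), and 0.33 without ASXL1-MT replicate 1 (adjusted p = 0.382). The 3 probe sets were alike, at 0.61 (1422966_a_at), 0.60 (1422967_a_at) and 0.63 (1452661_at), and none passed.

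Brightness could be read for few members. Logs of 8 and above in single precision lie on a coarser rounding step, and on 17205 probe sets (38.2%) the 3 brightest values lay there, equal to signals of at least 256 for base 2. Of the 23 member probe sets 2 were bright by this rule, both of Tfrc. When bright probe sets were fitted alone, 39.4% of them were called, and the 2 of Tfrc were not (limma adjusted p = 0.0995 and 0.135). With genes averaged from bright probe sets, 43.8% were called, and Tfrc was not (0.62, adjusted p = 0.104). For the other members a wide change can come from values near background, and the rule can also miss probe sets whose groups lie far apart.

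**Figure D2:**
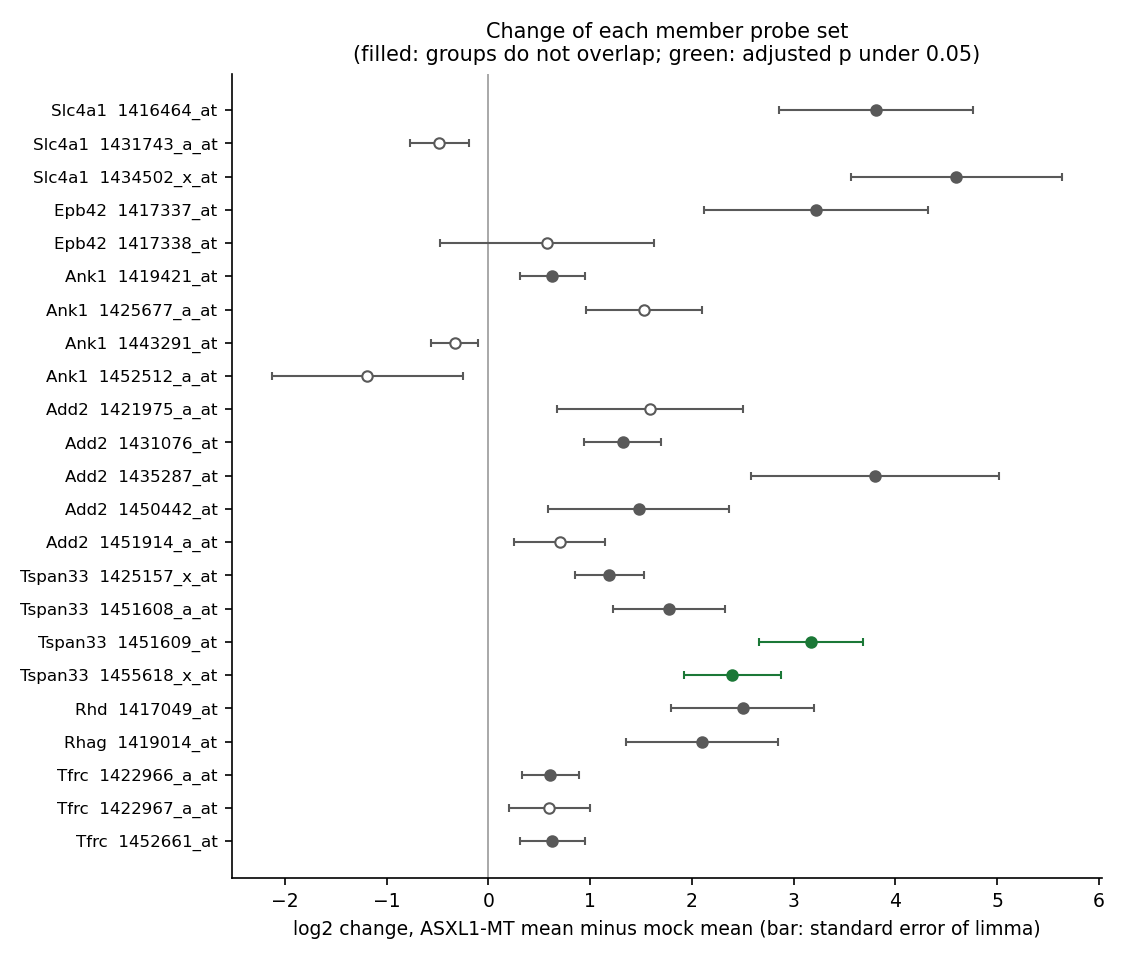
Change of each of the 23 probe sets (horizontal axis, log2, ASXL1-MT over mock) with the standard error of limma as bars. Of these, 20 lie above 0 and 3 below, 15 have groups that do not overlap, and 2 of Tspan33 passed the test.

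Counted over probe sets, the groups did not overlap in 15 of 23, all with ASXL1-MT higher, against 21.7% of all probe sets. At an unadjusted p under 0.05, 12 of the 23 were higher and 0 lower, where 16.1% of all were higher. Probe sets of 1 gene share their target, so these counts are not 23 separate observations. The genes were also chosen with earlier results of these data known. The members' median change was 1.48, against 0.11 over all probe sets.

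The promoters of the 2 called genes and of the 2 Rh genes are shown so that the 2 members that passed can be set beside a homologous pair that did not, for motifs of red cell transcription factors. The split is by the test and not by the size of change. Changes were 2.13 for Tspan33, 1.78 for Add2, 2.50 for Rhd and 2.10 for Rhag. GATA1, the master regulator of the lineage, binds GATA, and KLF1 binds CACCC-type sites, searched as CCNCNCCC. Sequences are the 250 bases before each RefSeq gene start in GRCm38.p6, 5′ to 3′ along the gene, with capitals for GATA or CCNCNCCC on either strand. The 2 motifs did not overlap each other in these sequences.
Tspan33, chr6:29693964-29694213, plus strand: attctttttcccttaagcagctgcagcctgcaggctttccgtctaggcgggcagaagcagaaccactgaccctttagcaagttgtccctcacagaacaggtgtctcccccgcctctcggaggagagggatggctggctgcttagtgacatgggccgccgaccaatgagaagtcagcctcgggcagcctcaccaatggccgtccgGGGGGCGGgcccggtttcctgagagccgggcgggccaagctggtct
Add2, chr6:86028431-86028680, plus strand: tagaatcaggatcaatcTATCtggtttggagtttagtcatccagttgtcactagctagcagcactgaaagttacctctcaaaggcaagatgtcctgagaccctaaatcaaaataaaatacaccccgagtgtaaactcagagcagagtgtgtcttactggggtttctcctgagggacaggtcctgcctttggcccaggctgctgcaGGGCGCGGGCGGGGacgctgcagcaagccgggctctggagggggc
Rhd, chr4:134864286-134864535, plus strand: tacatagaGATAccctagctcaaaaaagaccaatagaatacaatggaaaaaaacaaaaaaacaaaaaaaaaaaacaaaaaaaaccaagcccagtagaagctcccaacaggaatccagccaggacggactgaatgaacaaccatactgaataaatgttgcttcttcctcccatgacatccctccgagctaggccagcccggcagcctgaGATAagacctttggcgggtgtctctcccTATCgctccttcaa
Rhag, chr17:40810899-40811148, plus strand: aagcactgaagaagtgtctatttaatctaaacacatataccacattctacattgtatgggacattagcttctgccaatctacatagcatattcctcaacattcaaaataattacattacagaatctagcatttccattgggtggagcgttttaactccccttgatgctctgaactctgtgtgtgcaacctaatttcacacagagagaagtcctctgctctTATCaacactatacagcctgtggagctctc

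Rhd held 3 GATA matches, at 242, 42 and 14 bases before the start, and Rhag held 1, at 30 bases. Neither held CCNCNCCC. Tspan33 held 1 CCNCNCCC match and no GATA, while Add2 held 1 GATA match far upstream and 2 overlapping CCNCNCCC matches at 45 and 39 bases. Of 7 promoters listed for 6 members, 5 held GATA, 4 held CCNCNCCC and 2 held both. Of 32851 promoters of this length, 53.6% held GATA, 45.9% CCNCNCCC and 18.8% both. A match describes letters alone, and it does not show binding.

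The 3 ASXL1-MT arrays lay far from each other for most of these genes, with a median SD of 0.69 over the 8, against 0.31 over all genes. The mock arrays spread too, with a median SD of 0.55 against 0.33. ASXL1-MT replicate 1 was the highest of the 6 arrays for 8 of 8 genes, where it was the highest for 16.5% of all genes. Over probe sets it was the highest for 17 of 23, against 16.1% of all. It exceeded both other ASXL1-MT arrays by over 1 for 10 of 23 probe sets, against 5.42% of all. Replicate 1 was above replicate 2 and replicate 2 above replicate 3 for 7 of 8 genes, against 15.8% of all genes, with Tfrc doing so by a margin that rounds to 0.00 and Epb42 as the exception. Within mock, replicate 1 was the lowest of the 3 mock arrays for 5 of 8 genes, against 35.6% of all genes. As the members were chosen with earlier results of these data known, the shares in this paragraph describe them and are no separate support.

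**Figure D3:**
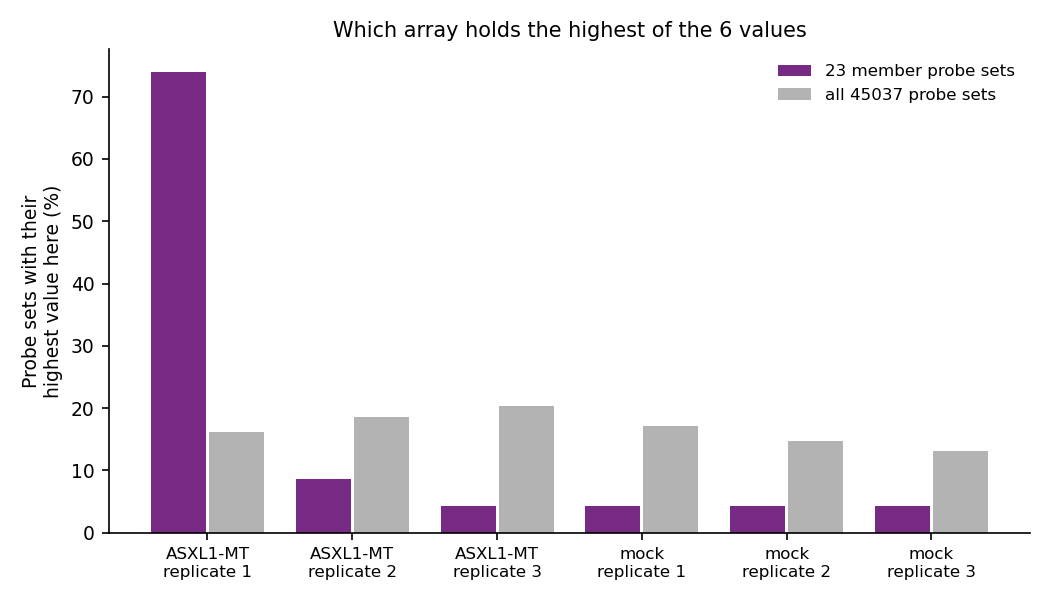
Share of probe sets (percent) whose highest of 6 values lay on each array, for the 23 members in purple and all 45037 probe sets in grey. The members' share is 73.9% on ASXL1-MT replicate 1, where all probe sets give 16.1%.

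Markers of red cell precursors moved with the members across the arrays. Of 32 markers written for this comparison, 25 were measured, and their mean was 1.02, 0.29 and -0.04 in ASXL1-MT replicates 1 to 3 and -0.74, -0.34 and -0.27 in mock replicates 1 to 3. The means of the 8 members were 1.83, 0.76 and 0.36 against -0.96, -0.63 and -0.63, so the arrays fell in nearly the same order. ASXL1-MT replicate 1 exceeded both other ASXL1-MT arrays in 22 of the 25 markers, against 31.8% of all genes. This list, too, was chosen with earlier results of these data known. The part of these markers in the members' changes was not tested, and since centring removed levels, none of them can be said to be at 0.

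Of the 25 markers, 2 were called higher and 1 lower, close to the 6.63% higher and 4.75% lower of all genes. In 12 the groups did not overlap with ASXL1-MT higher, where 23.5% of all genes had such groups, and the median change was 0.61, or 0.50 relative to all genes. Alas2, which starts heme synthesis in the red cell lineage, read 3.58, 1.09 and 1.08 against -2.52, -2.59 and -1.08 (change 3.98, SE 0.84, adjusted p = 0.043 among genes). Its only probe set, 1451675_a_at, did not pass in the fit of all probe sets (adjusted p = 0.053). Prdx2, an abundant red cell peroxidase, read 1.09, 0.56 and 0.50 against -0.54, -0.56 and -0.59 (change 1.28, adjusted p = 0.0219). The marker that fell was Nfe2, a transcription factor shared with megakaryocytes, by 0.75 (adjusted p = 0.028). With an array left out the calls were 1 higher without ASXL1-MT replicate 1 or mock replicate 2, 0 higher without each of the other arrays, and 0 lower throughout. They were 4 higher with either trend setting and 6 where each gene was read from its least variable probe set. Not all precursor genes followed the members. Gata1 read 0.74, -0.22 and -0.50 against -1.09, 0.39 and 0.22, Car1 1.21, -0.51 and -1.0 against -1.49, 0.51 and 0.52, and Slc25a37, the mitochondrial iron importer, had a change of -0.18; these 3 were chosen after their values were seen. Without ASXL1-MT replicate 1 the list's median change was 0.39 and the members' was 1.55, where all genes had 0.14.

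**Figure D4:**
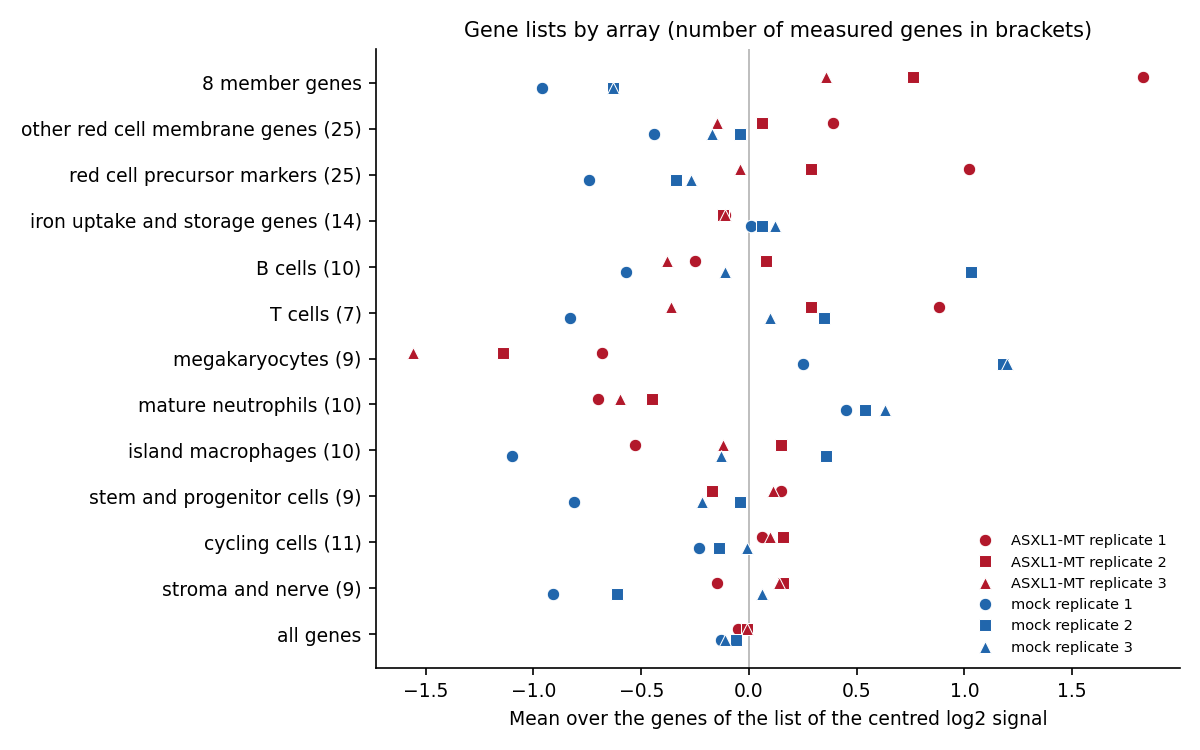
Mean centred log2 value over the genes of each list (horizontal axis) on each array, ASXL1-MT in red and mock in blue, with the symbol giving the replicate. For the 8 members and for red cell precursor markers ASXL1-MT replicate 1 lies highest, at 1.83 and 1.02. It also lies highest for T cells (0.88), other red cell membrane genes (0.39) and stem and progenitor cells (0.15). A list's mean can hide genes that went opposite ways.

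Markers of other cells were set beside the members in the same way, with 6.63% of all genes called higher and 4.75% lower as the background. The mean of the T cell markers (7 genes) was also highest in ASXL1-MT replicate 1, at 0.88, 0.29 and -0.36 against -0.83, 0.35 and 0.10. That array was the highest for 2 of the 7. In the full fit and each fit with an array left out, 2 were higher and 0 lower. In the full fit these were Cd8a (2.99, adjusted p = 0.00773) and Cd8b1 (3.68, adjusted p = 0.00773). The others went both ways and did not pass, with Cd3e at 0.78, Cd4 at -0.04, Cd28 at -0.41, Cd3g at -1.38 and Cd3d at -2.82. B cell markers, set beside Tspan33 because B cells make it, had 2 of 10 higher and 0 lower. These were Cd22 (1.78, adjusted p = 0.0216) and Cd79b (0.96, adjusted p = 0.0315), whose groups did not overlap either, while the list's means of -0.25, 0.08 and -0.38 against -0.57, 1.03 and -0.11 average genes that went both ways. With an array left out 0 or 1 B cell marker was called higher, and 0 without ASXL1-MT replicate 1, 2 or 3 or mock replicate 2. Cycling cell markers, set beside Tfrc, had 1 of 11 higher and 0 lower, and 0 were called in each fit with an array left out.

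The nerve markers Map2, Tubb3 and Snap25, set beside Add2, had changes of -0.32, 0.44 and 0.77 and did not pass. In the list of stroma and nerve they belong to, 2 of 9 genes were higher, the stromal genes Col3a1 and Cxcl12, and 0 lower. That count was 1 without ASXL1-MT replicate 1 or mock replicate 2 and 0 without each of the other arrays. Megakaryocyte markers fell in 5 of 9 cases with 0 higher, and the count was 4 without ASXL1-MT replicate 1, 5 without mock replicate 1 and 0 without each of the other 4 arrays. Mature neutrophil markers fell in 5 of 10 cases with 0 higher, and the count was 4 without ASXL1-MT replicate 1 or 2, 1 without ASXL1-MT replicate 3 and 2 without each mock array. Stem and progenitor markers had 3 of 9 higher and 1 lower, which became 3 and 1 without ASXL1-MT replicate 1, 0 and 0 without ASXL1-MT replicate 3, and 1 and 0 without each of the other arrays. Island macrophage markers had 1 of 10 higher and 1 lower, with 1 lower in every fit and 1 higher only without mock replicate 2 among the fits with an array left out. The part of any of these in the members' changes was not tested.

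The rest of the red cell membrane did not move as one. Of 25 measured genes of a wider list of 28, which holds none of the 8 members, 3 rose and 3 fell, a share of calls to be read against 6.63% higher and 4.75% lower over all genes. With an array left out, 0 or 1 gene was called in each direction, and without ASXL1-MT replicate 1 there were 0 higher and 1 lower. Other scalings gave 1 higher and 4 lower (quantile), 1 and 3 (cyclic loess) and 2 and 4 (equal medians). The list's median change was 0.65, and without ASXL1-MT replicate 1 it was 0.04, below the 0.14 of all genes. Means of the list were 0.39, 0.06 and -0.15 with ASXL1-MT and -0.44, -0.04 and -0.17 in mock, so ASXL1-MT replicate 1 was highest here too. Kcnn4, the calcium-gated potassium channel that sets red cell volume, rose by 1.23 (SE 0.20, adjusted p = 0.0227). Gypc, glycophorin C, which anchors the junction complex to the membrane, rose by 0.75 (adjusted p = 0.0454). Slc2a1, the glucose carrier GLUT1, fell by 0.88 (adjusted p = 0.0359), and Add1, the alpha-adducin partner of Add2, fell by 0.71 (SE 0.15, adjusted p = 0.0409). The other two called genes, named after their values were seen, were the stretch-gated channel Piezo1 at 0.65 and the tropomyosin Tpm3 at -0.68. In ASXL1-MT replicates 1 to 3 Kcnn4 read 0.58, 0.45 and 0.60, Piezo1 0.35, 0.41 and 0.26, and Gypc 0.50, 0.35 and 0.26. Of these called risers, replicate 1 was the highest for Gypc alone.

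Adducin is built as a pair of alpha with beta or gamma chains, and the 3 genes went separate ways. Add2 values were given above, Add1 read -0.46, -0.24 and -0.58 with ASXL1-MT, against 0.25, 0.34 and 0.27 in mock, and Add3, the gamma chain, had a change of -0.04. The blood group protein Kel, a red cell metalloprotease, had a pattern like the Rh genes, at 2.22, 0.28 and 0.16 against -2.96, -0.16 and -1.47 (change 2.42, adjusted p = 0.156). Ermap, another blood group protein, read 2.40, 0.74 and -0.41 against -2.31, 0.16 and -0.16. The 2 probe sets of Sptb, the beta chain of erythroid spectrin, opposed each other. Probe set 1455226_at read -3.18, -0.61 and 0.10 against 0.36, 0.21 and -0.10, with ASXL1-MT replicate 1 the lowest array, while 1450556_at had that array highest, at 0.48, 0.09 and -0.09 against -0.57, 0.26 and -0.41. Kel, Ermap, Sptb and Add3 were named after their values were seen, and none of them passed.

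**Figure D5:**
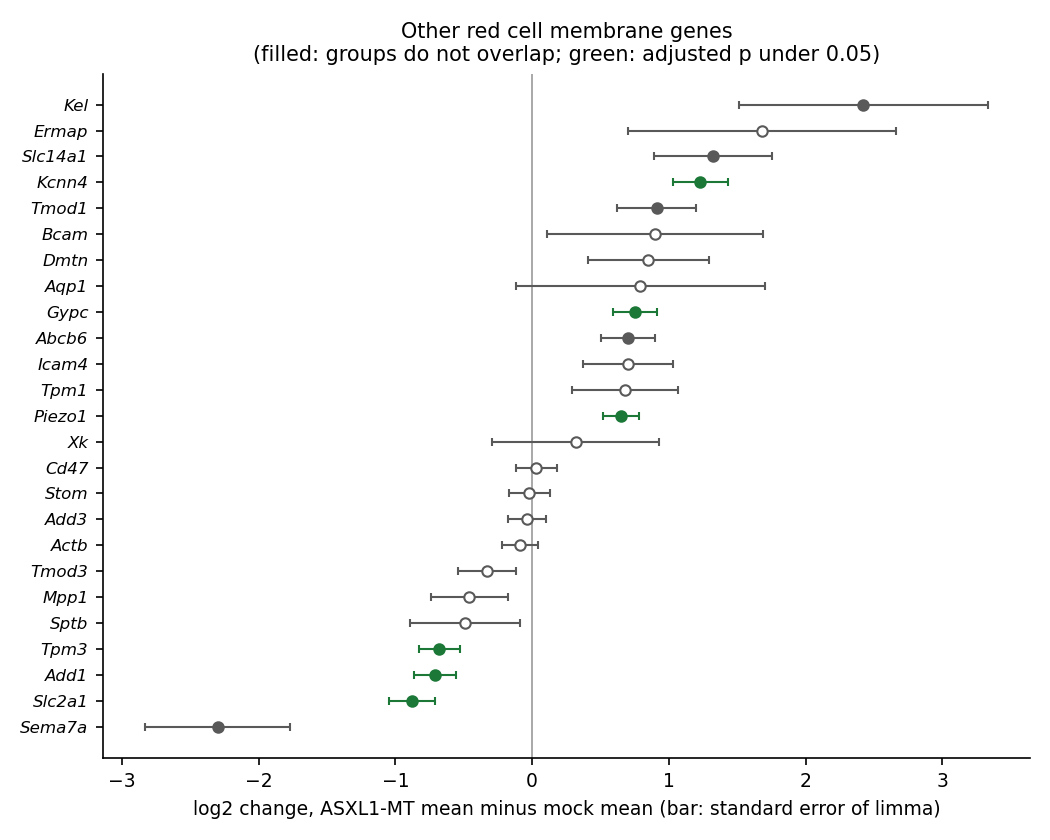
Change of 25 other red cell membrane genes (horizontal axis, log2, ASXL1-MT over mock) with the standard error of limma as bars. The 6 called genes are split, with 3 above 0 and 3 below, and changes run from -2.30 to 2.42.

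Genes of iron uptake and storage, the partners of Tfrc, had 0 of 14 higher and 2 lower by limma, and at an unadjusted p under 0.05 there were 1 higher and 4 lower. Slc40a1, the iron exporter ferroportin, fell by 1.45 (adjusted p = 0.0176), and Fbxl5, which senses iron and marks iron regulatory proteins for removal, fell by 1.40 (adjusted p = 0.0228). The list's means were -0.11, -0.12 and -0.11 with ASXL1-MT and 0.01, 0.06 and 0.12 in mock, averages of genes that went both ways. With an array left out 1 gene was called lower without ASXL1-MT replicate 1 or 2, and 0 without each of the other arrays.

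The genes whose values over the 6 arrays lay nearest to a member's were found by the mean absolute difference after centring each gene on its mean. For Slc4a1 these were Paqr9 (0.35), Mrc2 (0.43) and Csl (0.44), where the median over all other genes was 1.33. Paqr9 read 2.57, 1.39 and 0.56 against -1.85, -0.96 and -0.56. For Tfrc they were Adcy6 (0.06), Ankrd34a (0.08) and Actrt3 (0.09), with a median of 0.53. None of the 9 probe sets of these 6 genes was bright, and with 6 arrays and 18193 genes near matches are common.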

How the data were processed

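RNA from 6 marrow samples was hybridised to Affymetrix mouse arrays. MAS5 produced the signals, per the submitters' processing notes. The authors deposited log values, taken here as log2, centred on each probe set's median over the 6 arrays (largest row median 5e-07). Neither the log base nor the centring is stated, and both were read from the values. Groups came from the sample titles. Of the probe sets, 34945 had 1 symbol, 932 several and 9160 none here, and only the first kind was named. Promoters came from RefSeq. All 45037 probe sets, and separately all 18193 genes, were fitted in R 4.3.3 with limma 3.58.1 (lmFit, then eBayes) with group as the only term. The fit was tested on simulated data. The number of arrays limits the precision. An exact permutation test of 3 against 3 arrays cannot give a p below 0.1. Values closer than 1e-06 were ties.

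Members and lists were chosen with earlier results of these data known. Named were all members with every probe set, the called genes with the largest change (at most 4 from a list), and the 3 genes nearest to Slc4a1 and to Tfrc. For megakaryocytes, mature neutrophils, stem and progenitor cells, island macrophages and cycling cells, counts are given and no genes are named. Other genes are marked as named after their values were seen, except the nerve markers, named to split their list, and the T cell markers, given in full. Alternatives were 3 normalizations, 2 variance models, a block, bright probe sets alone, the probe set of smallest spread, an exact permutation test and each array left out.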

Additional observations from a re-analysis of the deposited data

How the results depend on the processing

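The 2 calls among member genes stayed 2 after quantile normalization, cyclic loess and equal array medians. They became 1 with a trend and 1 with trend and robust settings, and 0 when each gene took its probe set of smallest spread. Bright probe sets alone left 1 member gene, Tfrc, and 0 were called. Neither called gene was in that fit, so it says nothing about the 2 calls. The 2 calls among member probe sets became 1 under quantile normalization, cyclic loess and equal medians. They became 3 with either trend setting (1434502_x_at of Slc4a1 was added, adjusted p = 0.0451 and 0.038 by limma). On bright probe sets alone 0 of the 2 left were called, both of Tfrc, and neither called probe set was in that fit. The exact permutation test gave 0 of each, as 3 against 3 arrays cannot pass. With an array left out, counts ran from 0 to 0 for genes and from 0 to 1 for probe sets, with fewer samples in each fit. Same-numbered samples did not deviate together over all probe sets (correlation -0.01 in all 3 pairs). With 3 arrays in each group this cannot settle whether the numbers pair the samples. A fit with the replicate block called 0 member genes, 0 member probe sets and 0 of all 45037 probe sets. Changes that reversed were not called on either side. With the probe set of smallest spread Slc4a1 was -0.48 and Ank1 -0.33, by the choice of 1431743_a_at and 1443291_at. With an array left out Ank1 ran from -0.09 to 0.37 (-0.04 without ASXL1-MT replicate 1, -0.09 without mock replicate 3) and 1417338_at of Epb42 from -0.13 to 1.51 (-0.13 without ASXL1-MT replicate 3, -0.08 without mock replicate 3). The cause was not tested in these 4 cases. The higher share of calls over all probe sets was 58.4%, while cyclic loess gave 46.2%, quantile normalization 47.9% and equal medians 49.9%. On bright probe sets alone, 6778 of 17205 were called against 3646 of 45037. Of the members' changes with an array left out, 159 kept direction and side of the threshold, 23 lost a call and 4 reversed. Under the other settings 209 kept both, 15 lost a call, 2 gained one and 2 reversed.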
